A study of Mus musculus with 6 samples.

Results

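The genes described here carry a cell from the end of G2 through mitosis to cytokinesis: cyclins and kinases of mitotic entry, the spindle checkpoint, the chromosomal passenger complex, the centromere and kinetochore, the machinery of anaphase, the spindle and the cleavage furrow. They were taken by name from a list of 39 genes, from which kinesins were left out other than the kinetochore motor Cenpe. Each was read from rows of the array table to which the platform annotation gives exactly 1 gene symbol, by the probe set with the highest mean where a gene had several. Of the 39 genes, 38 were measured, out of 19937 genes in all; cyclin B1 (Ccnb1) was not analysed here.

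RNA came from the olfactory epithelium of newborn C57BL6 mice (postnatal day 0), dissected as the septa and turbinates of the nose. Knockout pups were Atf5-/-, with both copies of the transcription factor gene Atf5 disrupted, and wild-type pups were Atf5+/+; both came from crosses between Atf5+/- parents. Each genotype had 3 samples, each pooled from 3 pups and hybridised to 1 whole-transcript array, so that differences between single pups are not visible. How the Atf5 allele was made, and whether the knockout was limited to a cell type, is not stated in the labels.

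The olfactory epithelium is known for making neurons throughout life. Globose basal cells divide and give rise to immature and then mature olfactory sensory neurons, which no longer divide, while horizontal basal cells form a mostly quiescent reserve. Transcripts of mitotic genes accumulate in G2 and are removed around mitosis, so that their level in a tissue is commonly read as a sign of dividing cells of any type. Dissected septa and turbinates also hold cartilage, bone, muscle, vessels and blood cells, some of which divide at birth. In RNA of a whole tissue, more dividing cells, a smaller share of other cells and more transcript per dividing cell cannot be told apart.

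Many genes of this kind share a promoter layout. A cell cycle genes homology region, or CHR element, lies close to the start site and is bound by the DREAM and MuvB complexes, and CCAAT boxes upstream of it are bound by NF-Y. RefSeq's promoter table for the mouse build GRCm38.p6 held 32 of the 39 genes, each with 250 bases before and 50 after an annotated start. The letters TTTGAA or TTCGAA, on either strand, stood in at least 1 promoter of 23 of these 32 genes (71.9%), against 21.7% of all 27025 genes in the table and 19.2% of its 32851 promoters. CCAAT, on either strand, stood in 25 of 32 (78.1%), against 41.1% of genes and 37.4% of promoters. Both stood in 21 of 32, against 8.61% of genes and 7.52% of promoters.

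To show this layout, the stretch from 120 bases before to 50 after the start is printed for the genes that passed the test of genotype described below and are in the table, then for the gene with the largest change in each role where the table holds it, and last for the 2 genes with the smallest change. Where a gene had several starts, the most upstream was used. Sequences are from RefSeq, 5′ to 3′ in the direction of transcription, with coordinates in GRCm38.p6, and capitals mark the letters of CHR elements and CCAAT boxes on either strand.
Plk1, chr7:122159315-122159484, strand +: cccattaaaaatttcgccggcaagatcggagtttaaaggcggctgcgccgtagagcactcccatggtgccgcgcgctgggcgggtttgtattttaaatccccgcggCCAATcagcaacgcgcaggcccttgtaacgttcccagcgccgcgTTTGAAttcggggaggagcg
Depdc1a, chr3:159495313-159495482, strand +: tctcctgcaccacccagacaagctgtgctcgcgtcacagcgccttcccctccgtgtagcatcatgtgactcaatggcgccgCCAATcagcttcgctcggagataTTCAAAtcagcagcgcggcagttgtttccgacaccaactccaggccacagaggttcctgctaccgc
Bub1b, chr2:118598091-118598260, strand +: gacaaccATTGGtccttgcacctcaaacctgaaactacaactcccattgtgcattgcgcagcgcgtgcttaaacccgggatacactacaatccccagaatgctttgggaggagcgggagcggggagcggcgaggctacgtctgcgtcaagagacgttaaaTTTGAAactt
Bub1, chr2:127831810-127831979, strand -: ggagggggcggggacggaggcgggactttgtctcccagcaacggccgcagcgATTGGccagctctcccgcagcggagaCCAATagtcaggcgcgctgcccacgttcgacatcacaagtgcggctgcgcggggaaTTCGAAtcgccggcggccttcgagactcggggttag
Cenpe, chr3:135212443-135212612, strand +: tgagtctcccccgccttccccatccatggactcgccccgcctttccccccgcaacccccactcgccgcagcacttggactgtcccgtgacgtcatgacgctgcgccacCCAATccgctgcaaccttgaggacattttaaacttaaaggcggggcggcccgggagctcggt
Nusap1, chr2:119618178-119618347, strand +: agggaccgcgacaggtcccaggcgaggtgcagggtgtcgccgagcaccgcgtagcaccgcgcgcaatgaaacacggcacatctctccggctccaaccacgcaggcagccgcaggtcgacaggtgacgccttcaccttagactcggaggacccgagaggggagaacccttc
Ect2, chr3:27153829-27153998, strand -: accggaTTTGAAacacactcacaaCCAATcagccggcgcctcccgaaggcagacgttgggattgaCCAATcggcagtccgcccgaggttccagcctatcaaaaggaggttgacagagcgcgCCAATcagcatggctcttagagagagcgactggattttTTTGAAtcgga
Cdc20, chr4:118437294-118437463, strand -: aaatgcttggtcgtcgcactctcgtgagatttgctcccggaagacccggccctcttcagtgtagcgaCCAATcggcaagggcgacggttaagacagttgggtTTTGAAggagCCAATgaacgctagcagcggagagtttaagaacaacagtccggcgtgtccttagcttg
Bub3, chr7:131560250-131560419, strand +: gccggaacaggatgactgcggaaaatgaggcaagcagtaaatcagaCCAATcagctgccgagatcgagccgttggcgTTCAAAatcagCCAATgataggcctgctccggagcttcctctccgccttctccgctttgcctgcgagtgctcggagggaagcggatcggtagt
Pttg1, chr11:43425932-43426101, strand -: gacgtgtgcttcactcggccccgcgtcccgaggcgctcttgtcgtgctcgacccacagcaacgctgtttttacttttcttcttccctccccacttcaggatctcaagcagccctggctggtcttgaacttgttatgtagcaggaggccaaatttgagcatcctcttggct

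Positions are given for the first base of a match, counted from the annotated start and negative before it. In Plk1 the CCAAT box began at -14 and the CHR letters at 31. In Depdc1a they began at -39 and -16, and in Bub1 the CHR letters at 15 followed CCAAT boxes at -68 and -42. Cenpe held a CCAAT box alone, and the Nusap1 and Pttg1 windows held neither. Bub3, which differed little between genotypes, held both. In none of these windows did a CHR and a CCAAT match overlap.

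**Figure D1:**
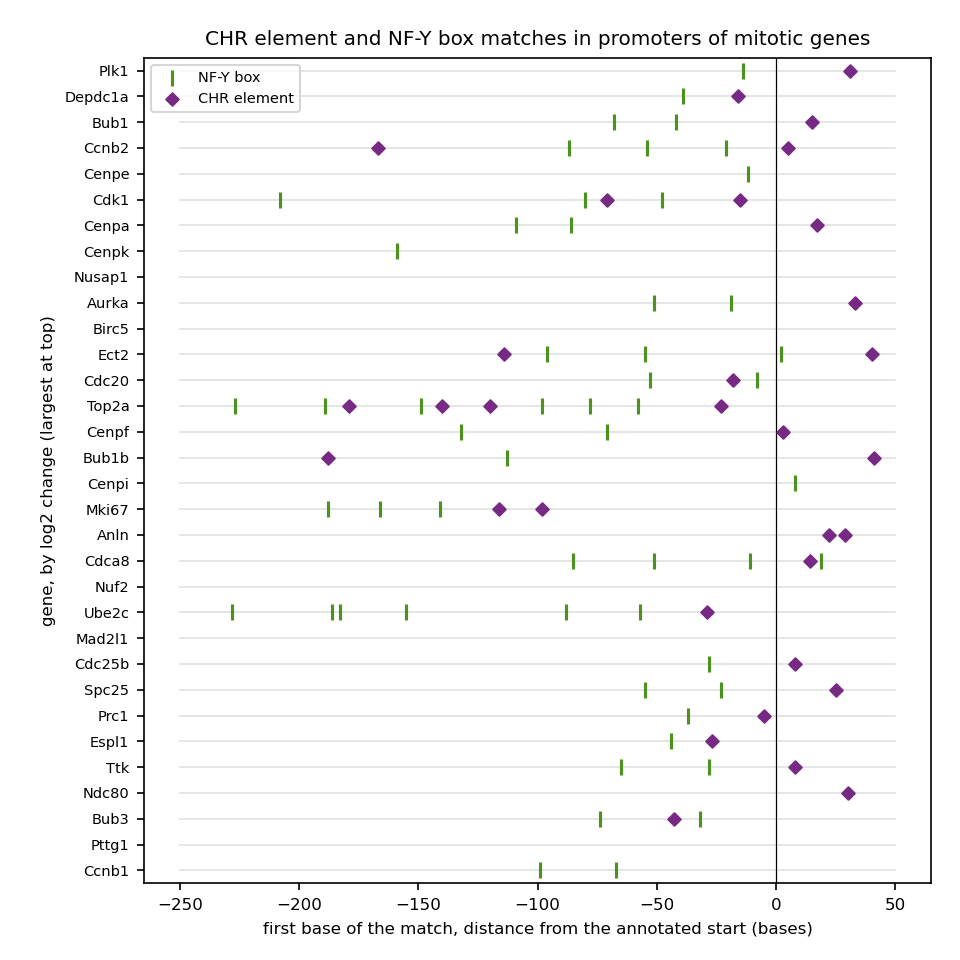
Positions of CHR elements (diamonds) and NF-Y boxes, the CCAAT letters (bars), in the most upstream promoter of the 32 genes found in RefSeq's table; the x axis is the distance in bases of the first base of a match from the annotated start, and genes run from the largest log2 change at the top, with the unmeasured Ccnb1 last. A CHR match began within 50 bases of the start in 22 of 32 genes, and genes without any match stand at several heights, among them Nusap1, Nuf2 and Pttg1.

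Counting the most upstream promoter of each gene, a CHR match began within 50 bases of the start in 22 of 32 genes (68.8%), against 5.31% of all genes, and a CCAAT match in 17 of 32 (53.1%), against 13.9%. The median log2 change, knockout minus wild type, was 0.30 over the 23 measured genes with CHR letters and 0.33 over the 8 without. For CCAAT it was 0.33 over the 24 with and 0.28 over the 7 without; neither difference was tested. The cyclic AMP response element TGACGTCA, the palindrome bound by several factors of the ATF/CREB family, stood in Cenpe and Ndc80 alone (2 of 32, against 2.03% of genes), and the E2F letters TTTGGCGC, TTTCGCGC or TTTCCCGC in Cdk1 alone (1 of 32, against 2.12%). A match of letters is no evidence of binding.

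The targeted gene was read first. Atf5 was at 9.43, 9.44 and 9.50 in the knockout arrays of replicates 1, 2 and 3, and at 10.54, 10.96 and 10.63 in the wild-type arrays, on the log2 scale of the deposited values. No knockout array was as high as any wild-type array; where this probe set lies relative to the disrupted part of the gene is not known here. The 6 arrays had medians of 8.67 to 8.72. Omp, the marker protein of mature olfactory neurons, was at 11.63, 11.0 and 11.4 in the wild type and fell to 9.21, 9.06 and 9.07 in the knockout. Levels are log2 fluorescence of a probe set, and are compared between arrays but not between genes.

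Comparing the genotypes asks whether transcripts of mitosis differ when Atf5 is absent. All 38 measured genes had a higher mean in the knockout. The median log2 change was 0.31 (1.24-fold), with a range from 0.04 to 0.57, while the median over all genes was 0.01. By limma with Benjamini-Hochberg adjustment over all genes, 4 of the 38 rose (Plk1, Depdc1a, Tpx2 and Bub1b), none fell and 34 did not pass; 0.502% of all genes rose by this test. At an unadjusted p under 0.05, 30 of the 38 were higher and none lower; of all genes, 7.82% were higher at that level and 16.1% were higher or lower, the shares against which the like counts below are to be read. These genes were measured on the same arrays, so that their shared direction is not so many separate observations.

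The groups did not overlap for 25 of the 38 genes, all knockout arrays lying above all wild-type arrays; this held for 10.8% of all genes. In all, 53.0% of genes had a change above 0. The changes of these mitotic genes had a median percentile of 98.5 among all genes, and 32 lay above the 90th percentile. The replicate numbers of the titles were treated as pairing the arrays, by the rule given under the processing. When the replicate number entered the fit as a block, 25 mitotic genes rose, the 4 named above among them, and 13 did not pass. Of all genes, 2.11% rose in that fit. Counts of each role below are to be read against this share, and against 0.502% without the block.

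The count changed when single arrays were left out. Leaving out knockout replicate 2 left none. Plk1 alone passed when knockout replicate 1 was left out, and likewise for wild-type replicates 1 and 3. Leaving out knockout replicate 3 gave 3 genes, and leaving out wild-type replicate 2 gave 14. When all 34760 rows of the table, unnamed ones included, were fitted and adjusted together, no mitotic gene passed; the lowest adjusted p was that of Plk1 (0.088 by limma).

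**Figure D2:**
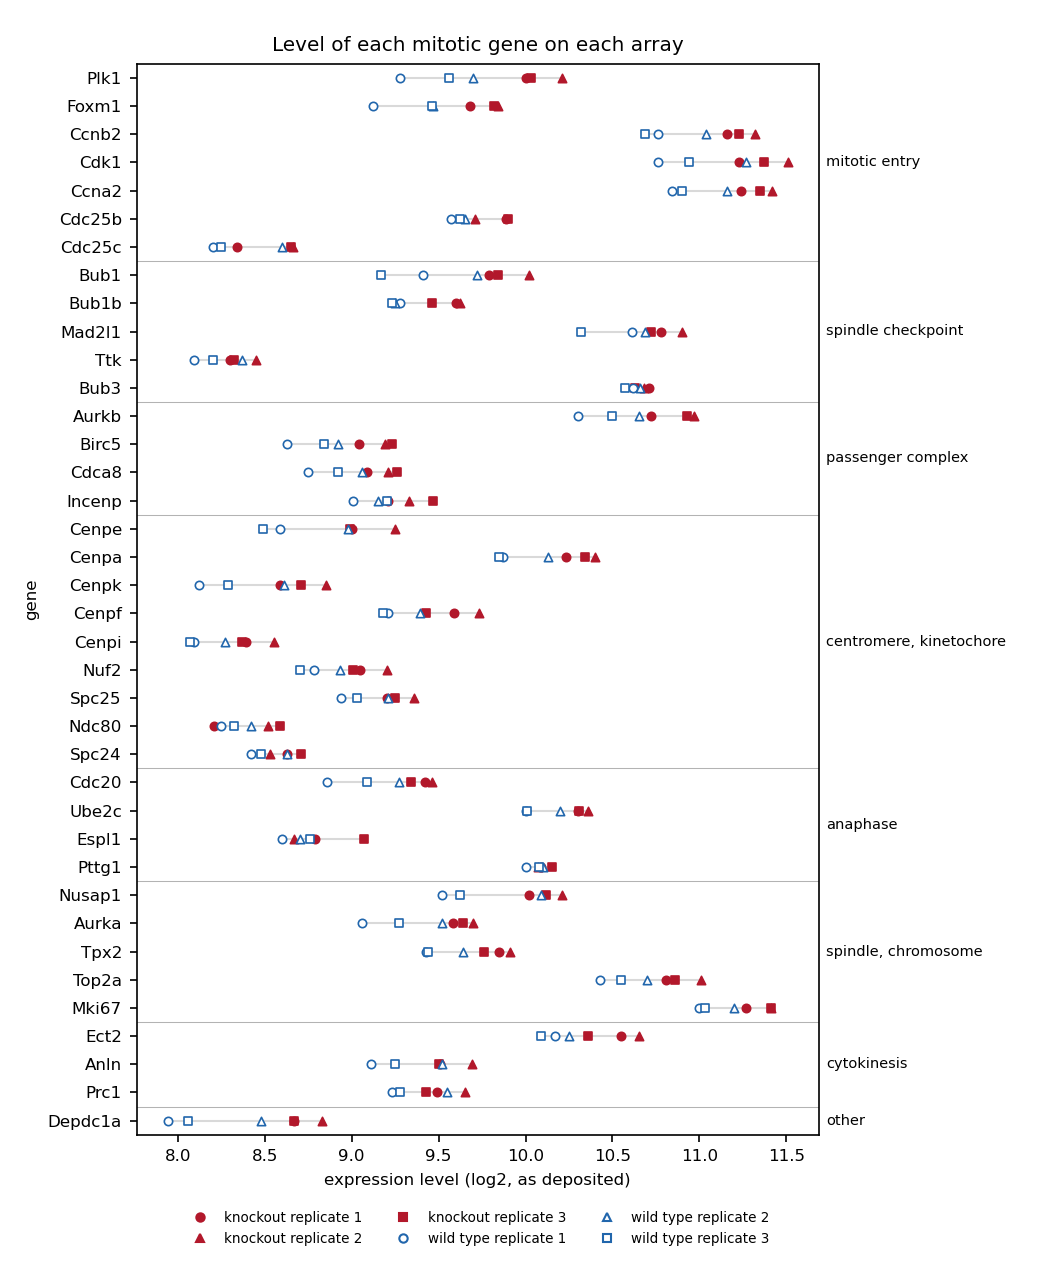
Level of each of the 38 genes (rows, grouped by role) on each of the 6 arrays; the x axis is the log2 level as deposited, filled red symbols are knockout and open blue symbols wild-type arrays, and the shape gives the replicate number. Red symbols lie to the right of blue ones without overlap in 25 rows, and among the blue symbols the triangle of wild-type replicate 2 lies farthest right in 35 rows.

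A second pattern ran across the arrays within each genotype. Wild-type replicate 2 was the highest of the wild-type arrays for 35 of the 38 genes, and knockout replicate 2 the highest of the knockout arrays for 28. Over all genes these shares were 41.3% and 34.2%. Averaged over the 38 genes, the knockout arrays of replicates 1, 2 and 3 stood at 9.68, 9.82 and 9.74, and the wild-type arrays at 9.34, 9.61 and 9.40. The lowest knockout mean was thus only a little above the highest wild-type mean. Of the 13 genes whose groups overlapped, 10 did so through wild-type replicate 2 alone, and the other 3 were Ndc80, Espl1 and Pttg1.

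Set against the wild-type array of its own number, the knockout array was higher for 37 genes in number 1, 35 in number 2 and 38 in number 3. The median difference over the 38 genes was 0.36, 0.22 and 0.31 in that order. It was above 0 in every number for 34 genes, as it was for 23.4% of all genes. Number 2, which held the highest array of both genotypes by the mean over these genes, showed the smallest median difference. Plk1 had the largest single difference in numbers 1 and 2 (0.72 and 0.52).

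Mitotic entry was represented by 7 genes, of which 1 rose and 6 did not pass; with the replicate block 5 rose. Plk1, the polo-like kinase that drives mitotic entry, centrosome maturation and cytokinesis, was at 10, 10.21 and 10.03 in the knockout arrays and at 9.28, 9.70 and 9.56 in the wild-type arrays. Every knockout array lay above every wild-type array, by at least 0.31. Plk1 rose by 0.57 (SE 0.11, adjusted p = 0.0203 by limma), or 1.48-fold (95% interval 1.25 to 1.76), and had the largest change of the 38. It passed with any 1 array left out except knockout replicate 2 (adjusted p = 0.0851).

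The other genes of entry did not pass without the block. Foxm1, the forkhead factor that activates genes of G2 and mitosis, had a change of 0.43 (SE 0.10, adjusted p = 0.0505; 0.00713 with the replicate block). Ccnb2 (cyclin B2), Cdk1, the kinase it activates, and Ccna2 (cyclin A2) were at 0.40, 0.38 and 0.37; these 3 passed with the replicate block (adjusted p = 0.0117, 0.0139 and 0.0122 by limma). Of these, Cdk1 overlapped between genotypes, since wild-type replicate 2 (11.27) lay above knockout replicate 1 (11.23). The phosphatases that activate Cdk1 passed in neither fit. Cdc25b was at 0.22 (adjusted p = 0.15), with knockout replicate 2 the lowest of its knockout arrays. Cdc25c was at 8.34, 8.66 and 8.65 in the knockout and at 8.20, 8.60 and 8.25 in the wild type, a change of 0.20 (SE 0.12, adjusted p = 0.486), and its groups overlapped.

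Of the 5 genes of the spindle checkpoint, which holds back anaphase until all kinetochores are attached, 1 rose and 4 did not pass; with the replicate block 2 rose. Bub1b, which encodes the checkpoint protein BubR1, was at 9.60, 9.62 and 9.46 in the knockout and at 9.28, 9.25 and 9.23 in the wild type. Its wild-type arrays were nearly level and replicate 2 did not stand out among them, unlike in most of the other genes. Bub1b rose by 0.30 (SE 0.06, adjusted p = 0.0353), or 1.23-fold (1.12 to 1.37). Its call ended when either of knockout replicates 1 and 2, or any wild-type array, was left out (adjusted p from 0.0945 to 0.126).

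Bub1, the checkpoint kinase that marks centromeric chromatin, was at 9.79, 10.02 and 9.84 in the knockout and at 9.41, 9.72 and 9.17 in the wild type. It had a larger change than Bub1b, 0.45, but a wider spread among the wild-type arrays (SE 0.13, adjusted p = 0.101; 0.0143 with the replicate block). Mad2l1, which encodes the Mad2 inhibitor of Cdc20, was at 0.26, and Ttk, the Mps1 kinase at the head of the checkpoint, at 0.13. Bub3, the partner that brings Bub1 and BubR1 to kinetochores, was at 10.71, 10.68 and 10.63 in the knockout and at 10.62, 10.66 and 10.57 in the wild type. Its change was 0.05 (95% interval -0.08 to 0.19, adjusted p = 0.728), and the groups overlapped.

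The chromosomal passenger complex corrects faulty attachments and later acts at the midzone. None of its 4 genes passed by limma, all 4 were at an unadjusted p under 0.05 (7.82% of all genes, higher) and without overlap between genotypes (10.8%); with the replicate block 3 rose. Aurkb, its kinase, was at 10.72, 10.97 and 10.93 in the knockout and at 10.30, 10.65 and 10.50 in the wild type, a change of 0.39 (SE 0.10, adjusted p = 0.0804; 0.00765 with the block). Birc5 (survivin) and Cdca8 (borealin), which target the complex to centromeres, were at 0.36 and 0.28, and rose with the block (adjusted p = 0.0116 and 0.0438). Incenp, its scaffold, was at 9.21, 9.33 and 9.47 in the knockout and at 9.01, 9.15 and 9.20 in the wild type, a change of 0.22 (adjusted p = 0.242) and the smallest of the 4. Knockout replicate 1 and wild-type replicate 3 of Incenp nearly touched.

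Of 9 genes of the centromere and kinetochore none passed by limma, 7 were at an unadjusted p under 0.05 (7.82% of all genes, higher), and 6 rose with the replicate block. Cenpe, a kinetochore motor of the kinesin superfamily that moves chromosomes to the metaphase plate, was at 9.0, 9.25 and 8.99 in the knockout and at 8.59, 8.98 and 8.49 in the wild type. The change was 0.39 (SE 0.13, adjusted p = 0.156; 0.0108 with the block), with wild-type replicate 2 just under the lowest knockout array. Cenpa, the histone H3 variant that marks the centromere, was at 0.37 (adjusted p = 0.055). Cenpk (0.37) and Cenpi (0.29), of the constitutive centromere network, and Cenpf (0.32), a large protein of the outer kinetochore, did not pass either. With the block these 4 rose (adjusted p from 0.0139 to 0.0199).

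The 4 genes of the Ndc80 complex, which binds microtubules, had changes from 0.11 to 0.28. Nuf2 was at 0.28 (adjusted p = 0.1; 0.0231 with the block), Spc25 at 0.21 and Spc24 at 0.11. Ndc80 itself was at 8.21, 8.52 and 8.59 in the knockout and at 8.25, 8.42 and 8.32 in the wild type. Its change was 0.11 (95% interval -0.11 to 0.34, adjusted p = 0.659), and knockout replicate 1 was the lowest of the 6 arrays. Whether these 4 subunits differ from one another in their change was not tested.

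Among 4 genes of anaphase none passed by limma, 2 were at an unadjusted p under 0.05, and 1, Ube2c, rose with the replicate block (adjusted p = 0.048). Cdc20, the activator of the anaphase-promoting complex, was at 9.42, 9.46 and 9.34 in the knockout and at 8.86, 9.27 and 9.09 in the wild type, a change of 0.33 (SE 0.10, adjusted p = 0.123; 0.0501 with the block). Ube2c, the ubiquitin-conjugating enzyme of that complex, was at 0.26, with knockout arrays of 10.30, 10.36 and 10.31. These genes did not overlap between genotypes. The pair that controls cohesin cleavage did: Espl1 (separase) was at 0.16, and Pttg1 (securin, its inhibitor) at 10.09, 10.07 and 10.15 on the knockout arrays against 10, 10.10 and 10.08 on the wild-type arrays. Pttg1 had the smallest change of the 38, 0.04 (95% interval -0.10 to 0.18, adjusted p = 0.814).

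Of 5 genes of the spindle and the mitotic chromosome 1 rose and 4 did not pass, and all 5 rose with the replicate block. Tpx2, the spindle assembly factor that activates Aurora A, was at 9.85, 9.91 and 9.76 in the knockout and at 9.43, 9.64 and 9.44 in the wild type. It rose by 0.34 (SE 0.08, adjusted p = 0.0459), or 1.27-fold (1.12 to 1.43), with no overlap. The call ended after median centring of the arrays (adjusted p = 0.0511), under either filter on dim genes (0.0531 and 0.0561) and without any 1 array other than wild-type replicate 2 (0.0511 to 0.186). Aurka, the Aurora A kinase of the spindle poles, was at 0.36 (adjusted p = 0.121; 0.0262 with the block).

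Nusap1, a microtubule-bundling protein of the spindle, was at 10.02, 10.21 and 10.12 in the knockout and at 9.52, 10.09 and 9.62 in the wild type. The change was 0.37 (SE 0.13, adjusted p = 0.211; 0.0389 with the block), and wild-type replicate 2 lay inside the knockout range. Mki67, the Ki-67 antigen that coats mitotic chromosomes and is widely used to stain cycling cells, was at 11.27, 11.41 and 11.41 in the knockout and at 11.0, 11.20 and 11.03 in the wild type, a change of 0.29 without overlap (adjusted p = 0.0779; 0.0312 with the block). Top2a, the topoisomerase that untangles sister chromatids, was at 0.33 (adjusted p = 0.0772; 0.0134 with the block). A second and dimmer probe set of Top2a gave a difference of 0.10, its knockout arrays at 6.20, 6.14 and 6.18 lying across its wild-type arrays at 5.94, 6.24 and 6.05.

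None of 3 genes of cytokinesis passed by limma, 2 were at an unadjusted p under 0.05, and 2 rose with the replicate block. Ect2, the exchange factor that activates RhoA at the cleavage furrow, was at 10.55, 10.65 and 10.36 in the knockout and at 10.17, 10.25 and 10.09 in the wild type, a change of 0.35 (SE 0.08, adjusted p = 0.0562; 0.012 with the block). Its groups did not overlap. Anln (anillin), a scaffold of the contractile ring, was at 0.28 (adjusted p = 0.238; 0.0471 with the block). Prc1, which bundles midzone microtubules, was at 9.49, 9.65 and 9.43 in the knockout and at 9.23, 9.55 and 9.28 in the wild type, a change of 0.17 (adjusted p = 0.435) with overlapping groups.

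Depdc1a, a DEP domain gene expressed in dividing cells, was at 8.67, 8.83 and 8.67 in the knockout and at 7.94, 8.48 and 8.06 in the wild type. No knockout array was as low as any wild-type array. It rose by 0.56 (SE 0.13, adjusted p = 0.0429), or 1.48-fold (1.21 to 1.80). A second probe set, dimmer and not used in the fit, was at 7.57, 7.49 and 7.36 in the knockout and at 6.25, 6.87 and 6.68 in the wild type, again without overlap, a difference of 0.87. The call ended without any 1 array other than wild-type replicate 2 (adjusted p from 0.0794 to 0.164).

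**Figure D3:**
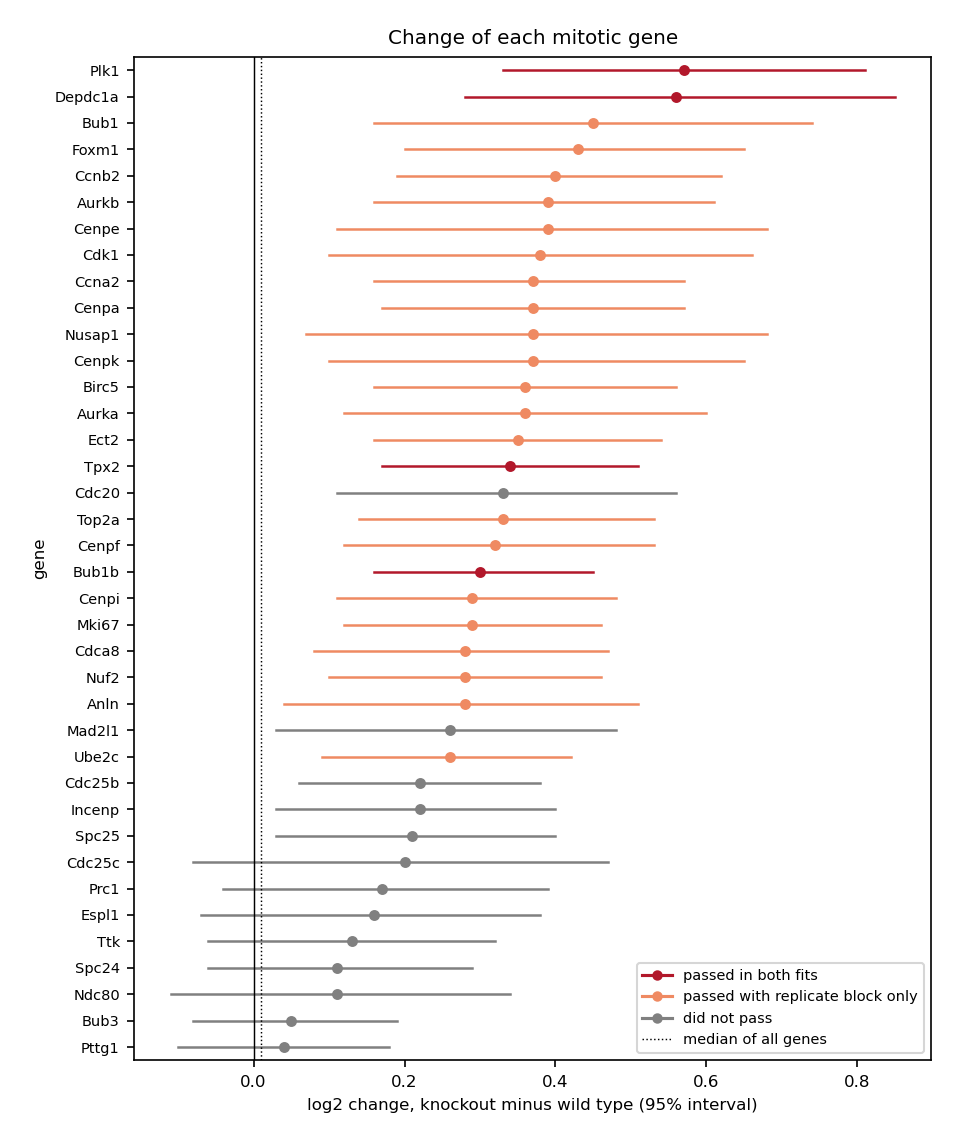
Log2 change of each of the 38 genes, knockout minus wild type (points), with its 95% interval (lines), sorted by size; dark red marks the 4 genes that passed in both fits, orange the 21 that passed with the replicate block only and grey the rest. All points lie right of 0, from 0.04 for Pttg1 to 0.57 for Plk1.

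The size of a change and its call did not go together closely. Bub1b passed with a change of 0.30 and Bub1 did not with 0.45, the SE of the first (0.06) being less than that of the second (0.13). The median SE over the 38 genes was 0.091 without and 0.065 with the replicate block, against 0.073 and 0.064 over all genes.

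**Figure D4:**
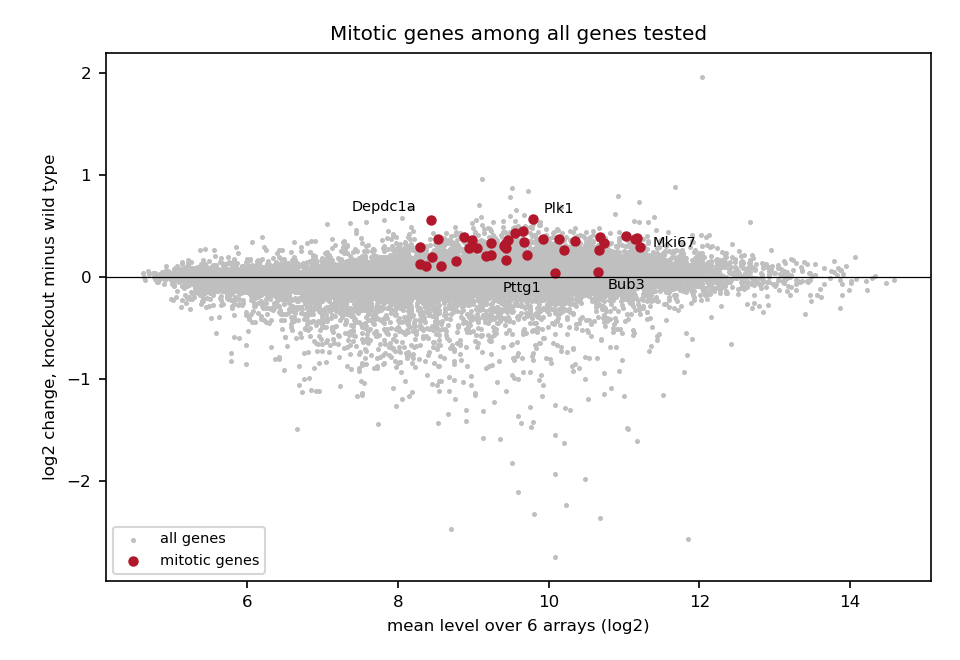
Log2 change, knockout minus wild type, against the mean log2 level over the 6 arrays, for the 38 mitotic genes (red) and all 19937 genes (grey). The red points lie between 0.04 and 0.57, above the median of all genes of 0.01, at mean levels from 8.29 to 11.22.

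Other genes of mitosis outside these 38 were read from a list of 69, of which 67 were measured. By limma 8 rose, none fell and 59 did not pass. The median change was 0.25, with a range from -0.25 to 0.48, and 63 of 67 lay above 0. The groups did not overlap for 25 genes that were higher in the knockout and for 1 that was lower. Over all 19937 genes these counts were 2152 and 2052. With the replicate block 31 rose. Of all genes, 0.502% rose by limma, 2.11% rose with the block and 53.0% lay above 0. Hmmr, a spindle assembly protein, rose by 0.42 (adjusted p = 0.0449). Racgap1, the subunit of centralspindlin that binds Ect2, rose by 0.36 (adjusted p = 0.0244), its knockout arrays standing at 10.41, 10.52 and 10.44 against wild-type arrays at 9.98, 10.19 and 10.12. The condensin subunit Ncaph and the cyclin F gene Ccnf rose by 0.35 each (adjusted p = 0.0496 and 0.0478). With 1 array left out, Hmmr passed in 2 fits, Racgap1 and Ncaph in 1 each and Ccnf in 0. After median centring Hmmr, Ncaph and Ccnf did not pass (adjusted p = 0.0507, 0.0558 and 0.0584 by limma). The count of this list was 0 when knockout replicate 2 was left out, and also for wild-type replicates 1 and 3. Leaving out knockout replicate 3 gave 1, leaving out knockout replicate 1 gave 2, and leaving out wild-type replicate 2 gave 13.

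DNA replication, which precedes mitosis in S phase, was read from 40 measured genes of 41 listed. By limma 2 rose, none fell and 38 did not pass; the median change was 0.18, and 39 of 40 lay above 0. With the replicate block 10 rose. The shares over all genes were 0.502% by limma, 2.11% with the block and 53.0% above 0. Gins1, a subunit of the replicative helicase, rose by 0.37 (adjusted p = 0.042) and Mcm4, another, by 0.29 (adjusted p = 0.04). With 1 array left out, Gins1 passed in 1 fit, that without wild-type replicate 2, and Mcm4 in 0. The count of this list was 0 when knockout replicate 2, knockout replicate 3 or the first wild-type array was left out, and 1 when wild-type replicate 2 was. Whether the median of 0.31 for the mitotic genes differs from that of 0.18 was not tested, and all these genes were measured on the same arrays.

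Markers of cell types that divide or that neighbour the epithelium were read beside these counts, from lists of 3 to 8 measured genes; array values do not reach 0, so that no marker can be read from them as absent. Of 7 genes of globose basal cells none passed by limma (2 at an unadjusted p under 0.05, none with the block), with 6 of 7 above 0 and a median of 0.20; the median was 0.12 without knockout replicate 1 and also without knockout replicate 2. Neurog1, a proneural factor of dividing precursors, was at 0.08 and Neurod1, a factor of their progeny, at 0.04. The mean over this list stood at 10.45, 10.53 and 10.24 on the knockout arrays against 10.30, 10.30 and 10.21 on the wild-type arrays, so that the groups overlapped. Of 5 genes of horizontal basal cells none passed (0 at an unadjusted p under 0.05). The median was -0.37, with Krt5 at -0.40 and Krt14 at -0.37, while 2 of 5 lay above 0, by at most 0.04. The list means were 9.83 to 10.03 in the knockout and 9.89 to 10.47 in the wild type.

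All 8 genes of mature neurons fell, Omp and the olfactory G protein gene Gnal (-2.36) among them. Their list mean was 8.97 to 9.14 in the knockout and 10.78 to 11.16 in the wild type. Of all 19937 genes, 645 fell by limma and 889 with the replicate block, the background for counts of genes that fell. None of 6 skeletal muscle genes passed (1 at an unadjusted p under 0.05; 1, the embryonic myosin gene Myh3, with the block, adjusted p = 0.0438). The actin gene Acta1 was at 0.59 and Myh3 at 0.96, and all 6 lay above 0, with a median of 0.42 and list means of 9.98, 10.12 and 10.30 on the knockout arrays against 8.97, 10.11 and 9.96 on the wild-type arrays. Wild-type replicate 1 was thus the lowest array for muscle, as it was for the mitotic genes. Without that array the muscle median was 0.01 and 3 of 6 genes lay above 0; the median of the mitotic genes was then 0.26, with all 38 above 0. Of 3 enamel genes 2 fell (3 with the block), the enamel matrix genes Enam (-2.47, adjusted p = 0.0301) and Amelx (-1.98, adjusted p = 0.0499), with list means of 7.98 to 9.02 in the knockout and 9.41 to 11.61 in the wild type. Their calls did not hold with most single arrays left out, while the changes stayed below 0 (-3.2 to -2.05 for Enam, -2.45 to -1.6 for Amelx). Enam passed in 1 of 6 such fits, that without wild-type replicate 3. It lost its call without any other array (adjusted p from 0.0576 to 0.131). Amelx kept its call when replicate 3 of either genotype was left out and lost it without any other array (0.123 to 0.177), and also after quantile normalization (0.0632) or median centring (0.0571). Neither passed with all rows fitted (0.127 and 0.17) or with a trended and robust prior (0.23 and 0.271). The part of mature neurons, of muscle and of enamel in the differences of the mitotic genes was not tested.

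**Figure D5:**
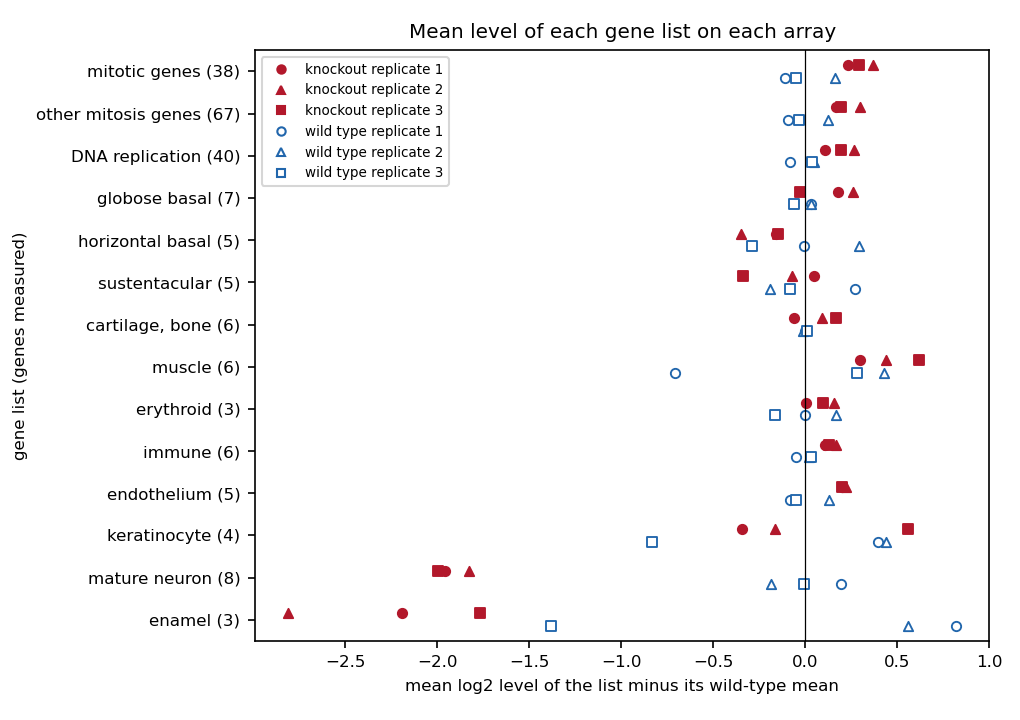
Mean log2 level of each gene list on each array, minus the list's mean over the wild-type arrays (x axis); filled red symbols are knockout and open blue symbols wild-type arrays, the shape gives the replicate number, and brackets give the number of genes measured. The mitotic genes spread from 9.34 to 9.61 over the wild-type and from 9.68 to 9.82 over the knockout arrays, before the wild-type mean is taken off, and wild-type replicate 1 stands apart for muscle.

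The remaining lists had no gene that passed by limma. Endothelial markers, from cells that divide while vessels grow, lay above 0 for 5 of 5 genes (3 at an unadjusted p under 0.05, against 16.1% of all genes), with Pecam1 at 0.21, Cdh5 at 0.23, a median of 0.22 and list means of 10.55 to 10.57 in the knockout and 10.27 to 10.48 in the wild type. Immune markers had a median of 0.15 over 6 genes (3 at an unadjusted p under 0.05), with Ptprc, the leukocyte common antigen, at 8.54 in both genotypes, and the complement gene C1qa at 0.12. Cartilage and bone (0.05 over 6 genes), erythroid cells (-0.04 over 3), sustentacular cells (-0.11 over 5) and keratinocytes (0.07 over 4) had 0, 1, 2 and 0 genes at an unadjusted p under 0.05. Their first genes without a call in either fit were Col2a1 (-0.01) and Acan (0.16) of cartilage, Slc4a1 (-0.04) of red cells, Ermn (-0.03) of sustentacular cells, and Krt10 (0.08) and Krt1 (0.21) of keratinocytes. With the replicate block 1 erythroid gene rose, Alas2, the haem enzyme of red cell precursors (0.39, adjusted p = 0.307; 0.00982 with the block), and 1 sustentacular gene fell, Cyp2g1, an olfactory cytochrome (-0.36, adjusted p = 0.076; 0.0114 with the block). The part of these cell types in the differences of the mitotic genes was not tested.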

How the data were processed

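Gene expression was measured on 6 one-colour arrays, 3 per genotype, from the group and number in the sample titles. The submitters' processing notes name RMA, the affy package and limma, with no version. The deposited values ran from 4.50 to 14.67 and were taken as log2 levels; for the log base and genome build, the sources used here give nothing. Such normalization hides a shift shared by most transcripts. Of 34760 rows, 21640 had 1 gene symbol in the platform annotation, 1321 several and 11799 none. A gene with more than 1 probe set was read from that of the highest mean, which gave 19937 genes. No filter was applied.

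Genotypes were compared with limma 3.58.1 (lmFit, eBayes) in R 4.3.3, 2-sided, at 0.05 after Benjamini-Hochberg adjustment across all of them; an adjusted p without another name is from this fit. SE is moderated, and intervals are at 95%. The fit was tested on simulated data, with genes drawn independently and calls required only for log2 changes of at least 1. That test does not bear on smaller changes or on deviations shared by genes of an array. Deviations from the group means of arrays of the same number correlated at 0.295, 0.122 and 0.234. Between arrays of different numbers the correlations ran from -0.259 to 0.0289. Each value for a shared number lay above 0.1, the cutoff taken, so the numbers were treated as pairs. The deviations of a gene cancel within a genotype, so that these correlations are not independent of one another. This pairing comes from the same data, since no label says what arrays of 1 number have in common. The number was not in the model, and the fit with it as a block stands beside the results it changes. Alternatives were that block, quantile normalization or median centring, filters on dim genes, the mean of probe sets, all rows, a trended and robust prior, and leaving out each array.

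Every measured gene of the list could be named. Values on every array are given for those past the threshold and for the largest and smallest change in each role, and changes for the other members. Of the other mitosis and replication lists up to 4 genes per direction that passed are named, and of the marker lists the first 2 genes and, outside mature neurons, those that passed. The members and lists were chosen with earlier results of these data known. The number of arrays limits the precision.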

Additional observations from a re-analysis of the deposited data

How the results depend on the processing

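All 38 mitotic genes kept a change above 0 under every alternative that tested them; the filter at the median level tested 27. Their median log2 change moved by less than the spread between arrays, from 0.26 to 0.39 with 1 array left out. The number of mitotic genes that rose was 4 as reported, 25 with the replicate block, 9 with a trended and robust prior, 2 among genes above the median level, 0 with all rows of the table fitted, and 0 to 14 with 1 array left out. It was 5 after quantile normalization and 3 after median centring. Among other mitosis genes, 8 rose as reported, 31 with the replicate block, 3 after median centring, 2 under either filter on dim genes, 0 with all rows, and 0 to 13 with 1 array left out. Among DNA replication genes, 2 rose as reported, 10 with the replicate block, 1 after quantile normalization or above the median level, 0 with all rows, and 0 to 2 with 1 array left out. Over all genes, 100 rose and 645 fell as reported. With the replicate block 421 rose. With all rows 16 rose and 305 fell, above the median level 60 and 226, and 358 fell above the 30th percentile. With 1 array left out 27 to 127 rose and 383 to 584 fell. The block changed no call of a named gene other than those given with their values above. The filters test fewer genes, and leaving out an array leaves fewer samples; the cause of the other shifts was not tested.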
